A study of Mus musculus with 4 samples.

Results

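The RAB GTPase family was taken as all genes whose symbol is Rab followed by a number and at most a letter and a digit, with status OK in both deposited gene tables, the culture table and the tumour table. This gave 55 members among 35604 gene rows. A further 3 of the 58 matching symbols were left out: Rab26 had too few reads in both tables, Rab27b had too few in the tumours, and the estimate for Rab15 failed in the tumours. Members were chosen because the family had looked raised in treated culture, so the culture differences below are a description of that choice and carry no test. A member counted as measured in a table where either library reached 1 FPKM, which adjusts fragments for gene length and sequencing depth. By this limit 41 members were measured in culture, 47 in tumours, 40 in both and 7 in neither.

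RNA-seq compared 4 libraries, 1 in each group, with NXD30001, which the series names as an inhibitor of the chaperone HSP90. In the NXD30001 culture, ESC-FC1801 cells had received 1 µM of the drug for 24 h, and in the DMSO culture the solvent for 24 h. The NXD30001 tumour came from a mouse with an ESC-FC1801 allograft dosed at 100 mg/kg 3 times a week for 4 weeks, and the vehicle tumour from a mouse given vehicle on that schedule. ESC-FC1801 are embryonic mouse Schwann cells of FVB/N background carrying Nf2 flox/flox, in which Nf2 was deleted in vitro with a Cre adenovirus, so the DMSO and vehicle groups lack Nf2 as well. All 4 libraries derive from this 1 line, and a tumour piece also holds cells of the host mouse, whose strain and age are not given in the sources used here.

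RABs are molecular switches. Bound to GTP they sit on the membrane of a particular compartment and recruit effectors such as tethers, motors and kinases, and after GTP hydrolysis they are pulled off the membrane and recycled. Exchange factors load them with GTP, GTPase-activating proteins end the signal, and a RAB escort protein presents each new RAB to a geranylgeranyl transferase, which adds lipid to cysteines at the carboxyl end. In Schwann cells this traffic carries myelin proteins, adhesion molecules and growth factor receptors to and from the surface.

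Each group is a single library, so the values carry no spread between replicates and no condition could be tested. "Higher" and "lower" describe these libraries, and each difference is log2(FPKM + 1) of the treated minus the untreated library, which understates changes of low genes. The authors' deposited table supplies a q-value and a call for each gene from the reads of 2 libraries, and its statistic implies an error. This error belongs to the deposited log2 fold, which has no pseudocount and lies further from 0 than the difference used here for low genes. It had a median of 0.75 (log2) over the culture members and 0.34 over the tumour members. FPKM carries no depth, but genes with an error equal to that of 1 fragment per library put the NXD30001 culture library at 1.05 times the depth of the DMSO library (40 genes) and the NXD30001 tumour library at 1.19 times that of the vehicle library (56 genes). Of 9 Schwann cell markers 8 were measured in either table. S100b was the exception, listed at 0.0538 FPKM with NXD30001 and 0.563 FPKM with DMSO in culture, and at 0 FPKM in the NXD30001 tumour and 0.305 FPKM in the vehicle tumour. In the treated culture 7 of the 8 measured markers were lower, and Sox10, a transcription factor of the Schwann lineage, was at 4.40 FPKM with NXD30001 and 8.42 FPKM with DMSO. In the treated tumour all 8 measured markers were higher, and Sox10 was at 139.8 FPKM with NXD30001 and 47.0 FPKM with vehicle.

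The part of a RAB that varies most between members is its tail, which ends in the cysteines that receive lipid. A complete coding sequence was found for 54 of the 55 members in GENCODE M21, with 194 to 973 codons and a median of 215. Within the last 5 codons 45 members have 2 cysteine codons and 9 have 1, namely Rab8a, Rab8b, Rab13, Rab18, Rab23, Rab28, Rab38, Rab40b and Rab40c. The last 48 coding bases before the stop codon are given for the 11 members past 2-fold in culture and for Rab4b and Rab6, relatives whose differences had the other sign, with these cysteine codons in capitals.
Rab4a: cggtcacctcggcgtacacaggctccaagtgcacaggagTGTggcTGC
Rab4b: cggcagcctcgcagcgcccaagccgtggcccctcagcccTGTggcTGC
Rab38: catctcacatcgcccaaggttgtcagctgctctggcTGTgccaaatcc
Rab13: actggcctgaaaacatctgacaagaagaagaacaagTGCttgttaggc
Rab5c: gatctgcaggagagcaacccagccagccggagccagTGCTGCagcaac
Rab8b: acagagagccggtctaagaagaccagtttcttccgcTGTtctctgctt
Rab8a: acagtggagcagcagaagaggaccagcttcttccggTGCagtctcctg
Rab6b: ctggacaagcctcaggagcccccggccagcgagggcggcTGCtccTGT
Rab6: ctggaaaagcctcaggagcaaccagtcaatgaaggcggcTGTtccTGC
Rab33b: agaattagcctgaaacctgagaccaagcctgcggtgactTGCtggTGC
Rab39b: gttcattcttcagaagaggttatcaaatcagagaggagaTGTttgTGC
Rab28: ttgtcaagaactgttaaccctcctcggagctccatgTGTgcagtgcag
Rab40b: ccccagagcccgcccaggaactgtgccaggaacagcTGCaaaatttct
The Rab8 pair shares 78.0% of its aligned coding bases, with no identical run over 17 bases. For Rab6b and Rab6 the values are 78.5% and 14 bases, and for Rab4a and Rab4b 74.8% and 23 bases. The longest identical run among the 9 pairs compared was 38 bases, between Rab1b and Rab1.

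Promoter windows of 300 bases, from 250 before to 50 after the start of the transcript (RefSeq, GRCm38.p6), were found for 47 members, 56 windows in all. They were rich in GC, with a median of 61.7% against 52.7% over all 32851 windows, and held a median of 20 CpG against 7. The E-box CACGTG was in 6 member windows (10.7%, against 7.15% of all windows), searched on both strands. The longer TCACGTGA, the core of the CLEAR motif bound by TFEB, a regulator of lysosomal genes, includes that E-box. It was in 3 member windows (5.36%, against 0.974% of all), those of Rab5a, Rab24 and Rab21. Both motifs hold a CpG, and the windows compared were not matched for CpG content. The part of CpG content in these shares was not tested. The heat shock element, searched as GAA, TTC and GAA units spaced by 2 bases, was in no member window and in 0.603% of all. The 60 bases around the longer motif, in capitals, are shown because this motif is the sequence feature in which the member windows stood furthest from the rest among the 3 searched. They lie at chr17:53479112-53479171 (plus strand) for Rab5a, chr13:55321946-55322005 (minus strand) for Rab24 and chr10:115315589-115315648 (minus strand) for Rab21.
Rab5a: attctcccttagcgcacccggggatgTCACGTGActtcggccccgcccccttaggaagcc
Rab24: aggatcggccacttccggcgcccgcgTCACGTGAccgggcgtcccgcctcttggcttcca
Rab21: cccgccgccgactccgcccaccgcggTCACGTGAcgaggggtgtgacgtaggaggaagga
In culture these 3 genes differed by 0.31, 0.64 and 0.02, all within 2-fold. Windows of Rab2a, Rab4a, Rab18, Rab30, Rab36, Rab37, Rab38 and Rab44 were not analysed here.

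In culture the RAB family as a whole lay slightly above 0 while most genes lay below it. The median over the 41 measured members was 0.13, against -0.25 over all 12676 compared genes. A difference above 0 was found for 25 of the 41 members (61.0%), against 40.6% of all genes. At least 2-fold higher in the treated library were 7 members (17.1%), against a background of 12.6%, and at least 2-fold lower were 4 (9.76%), against 24.8%. Relative to the median of all genes the counts became 9 higher and 1 lower, against 17.8% and 18.4% of all genes, and 28 of the 41 members lay above that median. Because this contrast chose the family, nothing is read from these shares. The authors' deposited table called 1 member higher, Rab4a, and 1 lower, Rab40b, where it called 2.75% of all compared genes higher and 7.14% lower. Without genes whose locus is shared with another row, 28 members were left, of which 4 were 2-fold higher (14.3%, against 12.1% of all such genes) and 2 were 2-fold lower (7.14%, against 23.7%).

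**Figure D1:**
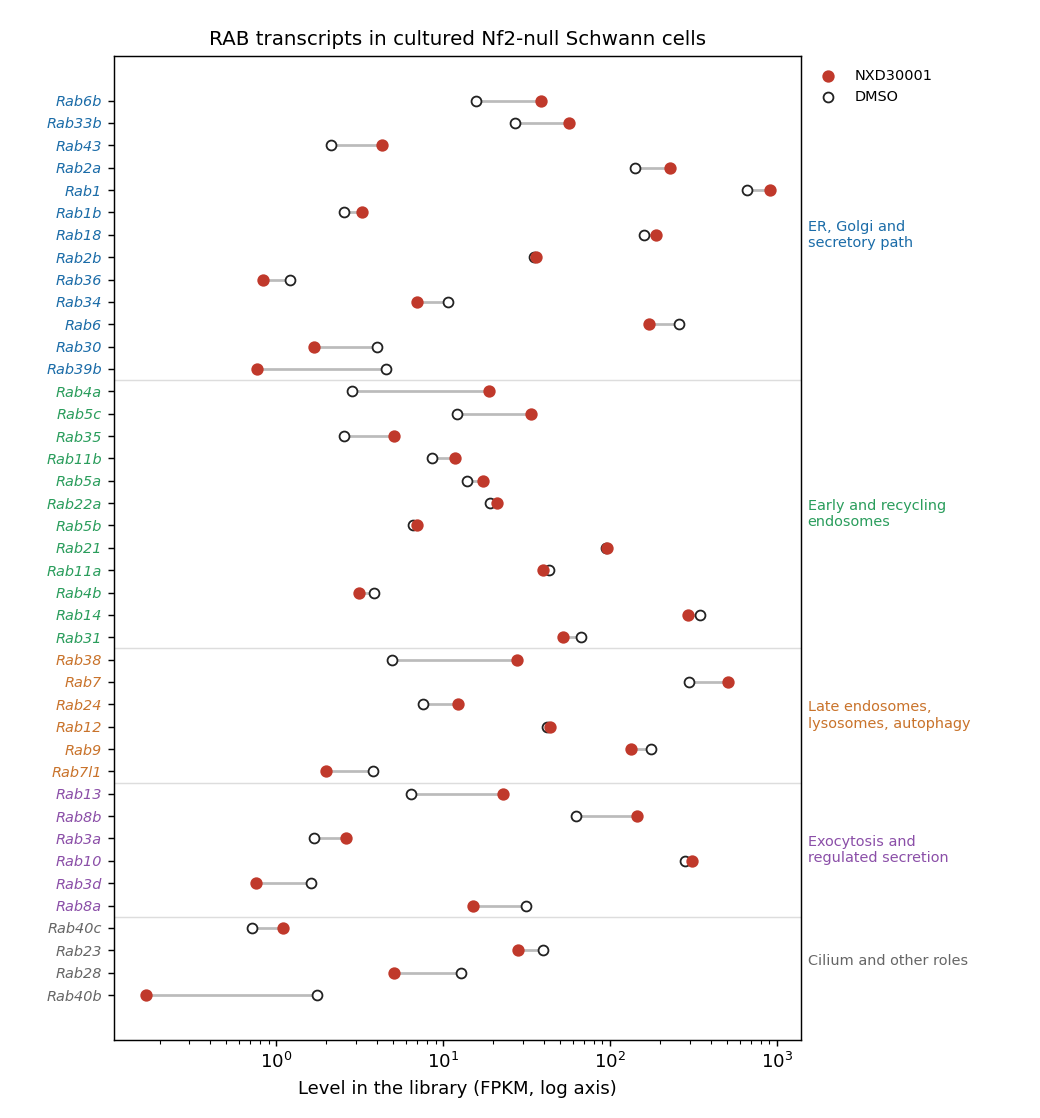
Level of the 41 RAB members measured in culture, in FPKM on a log axis, grouped by the compartment they serve. Filled points are the NXD30001 library and open points the DMSO library, 1 library each. Rab1 is highest in both libraries, and the widest gap upward is that of Rab4a, at 18.7 FPKM with NXD30001 and 2.84 FPKM with DMSO.

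Summed over all 55 members, RAB transcripts came to 3499 FPKM in the NXD30001 culture and 2911 FPKM in the DMSO culture. A few abundant members set this sum. The 5 most abundant held 64.1% of it with NXD30001 and 63.2% with DMSO. Rab1, the RAB of transport from the endoplasmic reticulum to the Golgi (ENSMUSG00000020149, chromosome 11 from 20101435 to 20126859, mm9), was at 903 FPKM with NXD30001 and 657 FPKM with DMSO. It made up 25.8% of the family's sum with NXD30001 and 22.6% with DMSO. Rab7, which directs late endosomes to lysosomes and autophagosomes to fusion, was at 509 FPKM with NXD30001 and 297 FPKM with DMSO, at a locus shared with another row. The gain of Rab1 and that of Rab7, 246 and 212 FPKM, were the 2 largest of the family, followed by 89.4 FPKM for Rab2a and 82.7 FPKM for Rab8b. At the other end stood Rab6, with a difference of -87.1 FPKM, and Rab14, with -52.9 FPKM. The log2 fold in the authors' deposited table was 0.46 with an error of 0.59 for Rab1, and 0.78 with an error of 0.45 for Rab7, and neither had a call.

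The culture differences varied with the members' level. Of the 16 members averaging under 10 FPKM none was 2-fold higher and 3 were 2-fold lower. Among the 16 between 10 and 100 FPKM, 6 were 2-fold higher and 1 was 2-fold lower. Of the 9 above 100 FPKM, only Rab8b passed 2-fold, upward. Over all genes the share at least 2-fold higher was 12.0%, 11.8% and 18.1% in these 3 level ranges, and the share at least 2-fold lower 27.5%, 23.3% and 19.5%.

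RABs of the endoplasmic reticulum, Golgi and early secretory path had a median of 0.23 over 13 measured members, with 8 above 0. Rab6b, the Rab6 form known from neurons, was at 38.7 FPKM with NXD30001 and 15.7 FPKM with DMSO, a difference of 1.25 (log2 fold 1.30, error 0.74 in the authors' deposited table). Rab33b, a Golgi RAB that also binds the autophagy protein ATG16L1, was at 56.5 FPKM with NXD30001 and 27.1 FPKM with DMSO, just past the 2-fold limit at 1.03. Rab2a, which acts between the endoplasmic reticulum and the Golgi, was at 229.6 FPKM with NXD30001 and 140.2 FPKM with DMSO. These 3 were higher in the treated library by 0.71 to 1.25, and the authors' table called none of them. Rab39b, a neuronal RAB whose human gene is linked to intellectual disability, was lower, at 0.769 FPKM with NXD30001 and 4.52 FPKM with DMSO, a difference of -1.64 (log2 fold -2.55, error 1.00 in the authors' deposited table). Rab6, the widely expressed form that works in retrograde transport to and through the Golgi, was at 172 FPKM with NXD30001 and 259 FPKM with DMSO. Rab6, Rab6b, Rab33b and Rab39b each share their locus with another row, and the division of reads between such rows is uncertain.

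Among RABs of early and recycling endosomes, 8 of 12 measured members lay above 0, with a median of 0.10, and 2 passed 2-fold, both upward. Rab4a, which returns receptors quickly from early endosomes to the surface (ENSMUSG00000019478, chromosome 8 from 126329885 to 126359187), was at 18.7 FPKM with NXD30001 and 2.84 FPKM with DMSO. Its difference of 2.36 (log2 fold 2.72, error 0.82 in the authors' deposited table) was the largest of the family, and the authors' deposited table gave it a q of 0.0290. Rab5c, one of the RABs that drive early endosome fusion, was at 33.5 FPKM with NXD30001 and 12.0 FPKM with DMSO, a difference of 1.40 (log2 fold 1.48, error 0.82 in the authors' deposited table), and was not called. Rab14, which moves cargo between the Golgi and endosomes and was among the 5 most abundant members, was at 291 FPKM with NXD30001 and 344 FPKM with DMSO, a difference of -0.24. The remaining 9 of the group differed by -0.35 (Rab31) to 0.77 (Rab35).

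Late endosome, lysosome and autophagy RABs had the highest median of the 5 groups, 0.34 over 6 measured members, of which 4 lay above 0 and 1 passed 2-fold. Rab38 (ENSMUSG00000030559, chromosome 7 from 95578783 to 95669877) was at 27.8 FPKM with NXD30001 and 4.92 FPKM with DMSO, a difference of 2.28 (log2 fold 2.50, error 0.82 in the authors' deposited table). Its q in the authors' deposited table was 0.0578, just past the limit for a call, and its locus is shared with another row. Rab38 is known for bringing pigment enzymes such as Tyrp1 to melanosomes, a kind of lysosome-related organelle. Tyrp1 itself was at 9.69 FPKM with NXD30001 and 0.0577 FPKM with DMSO, and was called. The other 4 melanocyte markers found in the table were near or at 0: Si was at 0.0375 FPKM with NXD30001 and 0.117 FPKM with DMSO, and Tyr, Dct and Mlana were listed at 0 in both libraries. Rab32, the closest relative of Rab38, lay under the 1 FPKM limit at 0.820 FPKM with NXD30001 and 0.630 FPKM with DMSO.

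The exocytosis and secretion group held members that differed in opposite directions. Rab13, a RAB of junction and surface transport (ENSMUSG00000027935, chromosome 3 from 90017617 to 90030307), was at 23.0 FPKM with NXD30001 and 6.44 FPKM with DMSO, a difference of 1.69 (log2 fold 1.84, error 0.79 in the authors' deposited table). Rab8b, which serves exocytosis and membrane protrusion, was at 145 FPKM with NXD30001 and 62.4 FPKM with DMSO, a difference of 1.21. Its paralogue Rab8a, which also serves the primary cilium, was at 15.1 FPKM with NXD30001 and 31.4 FPKM with DMSO, a difference of -1.01 and so just past the 2-fold limit. Rab8b was the higher of the pair in both libraries, with the wider gap in the NXD30001 library. Rab10, known for delivering the glucose transporter GLUT4 to the surface, was at 311 FPKM with NXD30001 and 283 FPKM with DMSO. None of these 4 was called in the authors' table.

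Of the remaining 4 measured members, assigned to the cilium or to less known roles, 3 lay below 0, and the group's median was -0.84. Rab40b, whose protein carries a SOCS box and recruits a ubiquitin ligase, was at 0.165 FPKM with NXD30001 and 1.76 FPKM with DMSO, a difference of -1.24 (log2 fold -3.42, error 0.93 in the authors' deposited table). The authors' deposited table called it with a q of 0.00897, though both levels are near or under 1 FPKM. Rab28, a ciliary RAB, was at 5.05 FPKM with NXD30001 and 12.8 FPKM with DMSO, a difference of -1.19, at a shared locus. Rab23, known as an inhibitor of Hedgehog signalling, was at 28.0 FPKM with NXD30001 and 39.9 FPKM with DMSO.

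**Figure D2:**
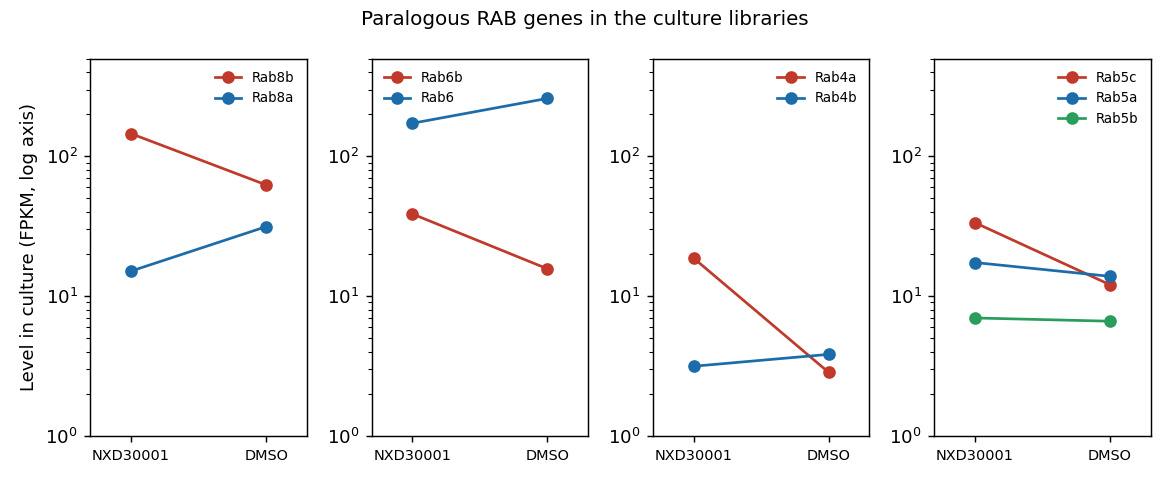
Levels of 4 sets of RAB paralogues in the culture libraries, in FPKM on a log axis, with NXD30001 on the left and DMSO on the right of each panel and 1 library per point. Rab8b and Rab8a differ in opposite directions, as do Rab6b and Rab6, while Rab4b stays near 3 to 4 FPKM beside Rab4a. The deposited log2 fold of Rab6, -0.59, lies within its error of 0.65.

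Of 9 pairs of close paralogues, set up with these values known, 5 had culture differences of opposite sign and 4 of the same sign. Many of these signs are uncertain, because the log2 fold in the authors' deposited table lay within its error. Among pairs of opposite sign it was -0.28 (error 0.83) for Rab4b and -0.13 (error 0.85) for Rab11a. For Rab6 it was -0.59 (error 0.65), for Rab11b 0.47 (error 0.89) and for Rab40c 0.63 (error 1.12). Of the pairs of opposite sign, only Rab8b and Rab8a both had folds beyond their errors. Among pairs of the same sign it was 0.03 (error 0.74) for Rab2b and 0.08 (error 0.90) for Rab5b. It was 0.33 (error 0.83) for Rab5a, 0.36 (error 1.02) for Rab1b and 0.46 (error 0.59) for Rab1. Rab4b was at 3.15 FPKM with NXD30001 and 3.83 FPKM with DMSO, against the higher level of Rab4a in the treated library. Beside Rab5c, Rab5a was at 17.4 FPKM with NXD30001 and 13.8 FPKM with DMSO, and Rab5b at 6.97 FPKM with NXD30001 and 6.61 FPKM with DMSO. Rab5c, second of the 3 in the DMSO library, was thus first in the NXD30001 library. Rab4b, Rab5a and Rab5b were picked for this comparison after their values were seen, as relatives of members past 2-fold. These contrasts between paralogues have no error beyond the implied ones and were not tested.

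The RAB median in culture comes from a family chosen as raised there, so the regulator lists are set beside all compared genes instead. Those genes had a culture median of -0.25, and 40.6% of them lay above 0. Upward 12.6% of them passed 2-fold, and downward 24.8%. Exchange factors, GTPase-activating proteins and effectors had medians above that of all genes, and prenylation and recycling factors a median below it. These gaps were not tested. The prenylation and recycling factors had a median of -0.39, with 6 of 8 measured genes below 0 and 1 called lower, Chml. Of all compared genes 7.14% were called lower. Chml, an escort protein for new RABs, was at 0.246 FPKM with NXD30001 and 11.3 FPKM with DMSO, a difference of -3.31, at a shared locus. Its paralogue Chm, also at a shared locus, was at 22.1 FPKM with NXD30001 and 31.2 FPKM with DMSO. Arl6ip5 was at 11.3 FPKM with NXD30001 and 16.1 FPKM with DMSO.

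Exchange factors had a median of -0.17 (24 measured, 4 at least 2-fold higher, 3 at least 2-fold lower). Rin3 and Rabgef1, which load Rab5, were at 61.6 and 37.7 FPKM with NXD30001, against 13.1 and 10.4 FPKM with DMSO. Rabgef1, at a shared locus, was called and Rin3 was not. Madd, an exchange factor for Rab3 and Rab27, was at 3.80 FPKM with NXD30001 and 14.4 FPKM with DMSO, and was not called. Its implied error was 324 (log2), so the lack of a call says little about this difference. GTPase-activating proteins had a median of 0.14 (30 measured, 2 higher and 4 lower by 2-fold). Evi5l was at 1.25 FPKM with NXD30001 and 8.61 FPKM with DMSO and was called, at a shared locus. Tbc1d20, which acts on Rab1, was at 26.6 FPKM with NXD30001 and 7.20 FPKM with DMSO. Tbc1d17 was at 1.76 FPKM with NXD30001 and listed at 0 with DMSO.

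Effectors had a median of 0.01 (35 measured, 6 higher and 6 lower by 2-fold). Appl2, an adaptor of Rab5 endosomes, was at 102 FPKM with NXD30001 and 711 FPKM with DMSO. Ehbp1, an effector of Rab8 and Rab10, was at 287 FPKM with NXD30001 and 62.4 FPKM with DMSO. Both were called in the authors' deposited table, Appl2 lower and Ehbp1 higher. Sytl5 was at 3.29 FPKM with NXD30001 and listed at 0 with DMSO.

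**Figure D3:**
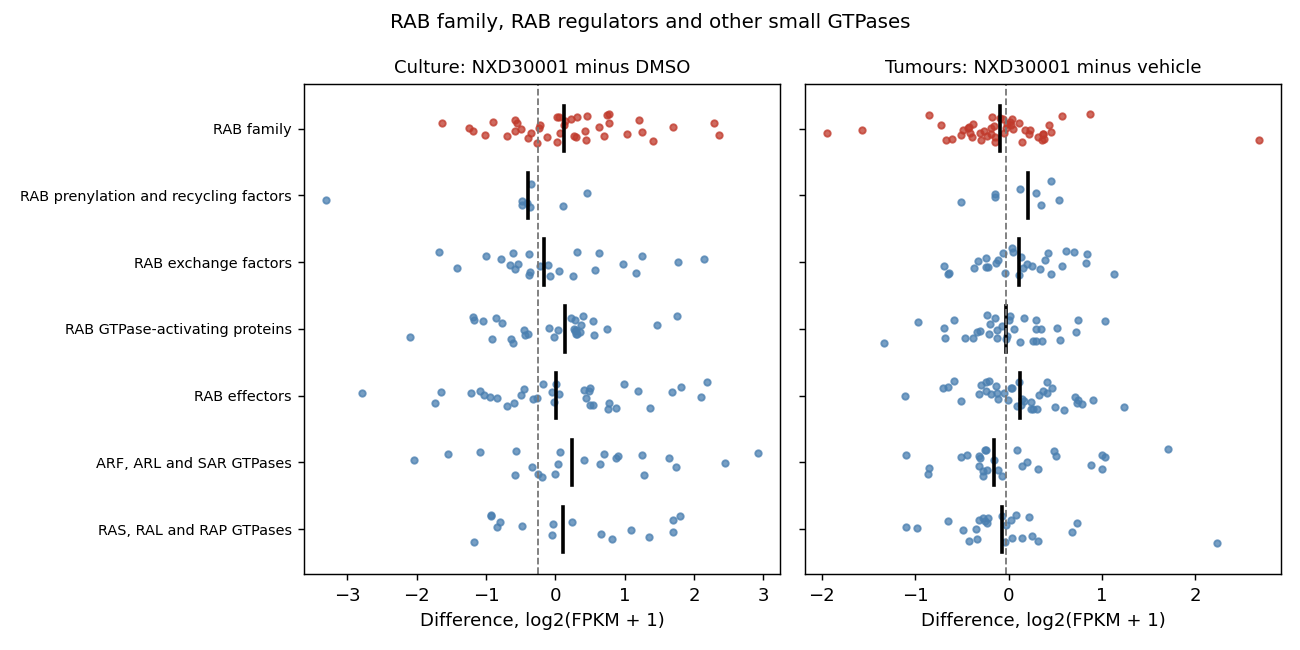
Differences in log2(FPKM + 1) of RAB members, RAB regulators and effectors, and 2 other families of small GTPases, in culture (left) and tumours (right), 1 point per measured gene. The black bar is the list's median and the dashed line the median of all compared genes, -0.25 in culture and -0.03 in tumours. The RAB median of 0.13 in culture falls between those of the ARF list, 0.24, and the RAS list, 0.10.

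Other small GTPases gave medians on both sides of that of the RABs in culture. The ARF, ARL and SAR list had a median of 0.24 (22 measured, 6 at least 2-fold higher, 3 at least 2-fold lower). For the RAS, RAL and RAP list it was 0.10 (16 measured, 5 higher, 1 lower). All 3 family medians lay above the -0.25 of all compared genes.

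In tumours the RAB members differed little between the treated and the vehicle library. The median over 47 measured members was -0.10, against -0.03 over all 15550 compared genes, and 19 members (40.4%) lay above 0, against 47.3% of all genes. At least 2-fold higher was 1 member (2.13%), against 7.32% of all genes, and at least 2-fold lower were 2 (4.26%), against 6.93%. The authors' deposited table called 1 measured member higher, Rab17, and 1 lower, Rab2b, where it called 3.14% and 2.45% of all compared genes. The quartiles of the members' differences were -0.38 and 0.19. The family's sum was 2123 FPKM in the NXD30001 tumour and 2192 FPKM in the vehicle tumour, a ratio of 0.968. In a bulk library fewer cells of a type and less RNA per cell cannot be told apart.

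**Figure D4:**
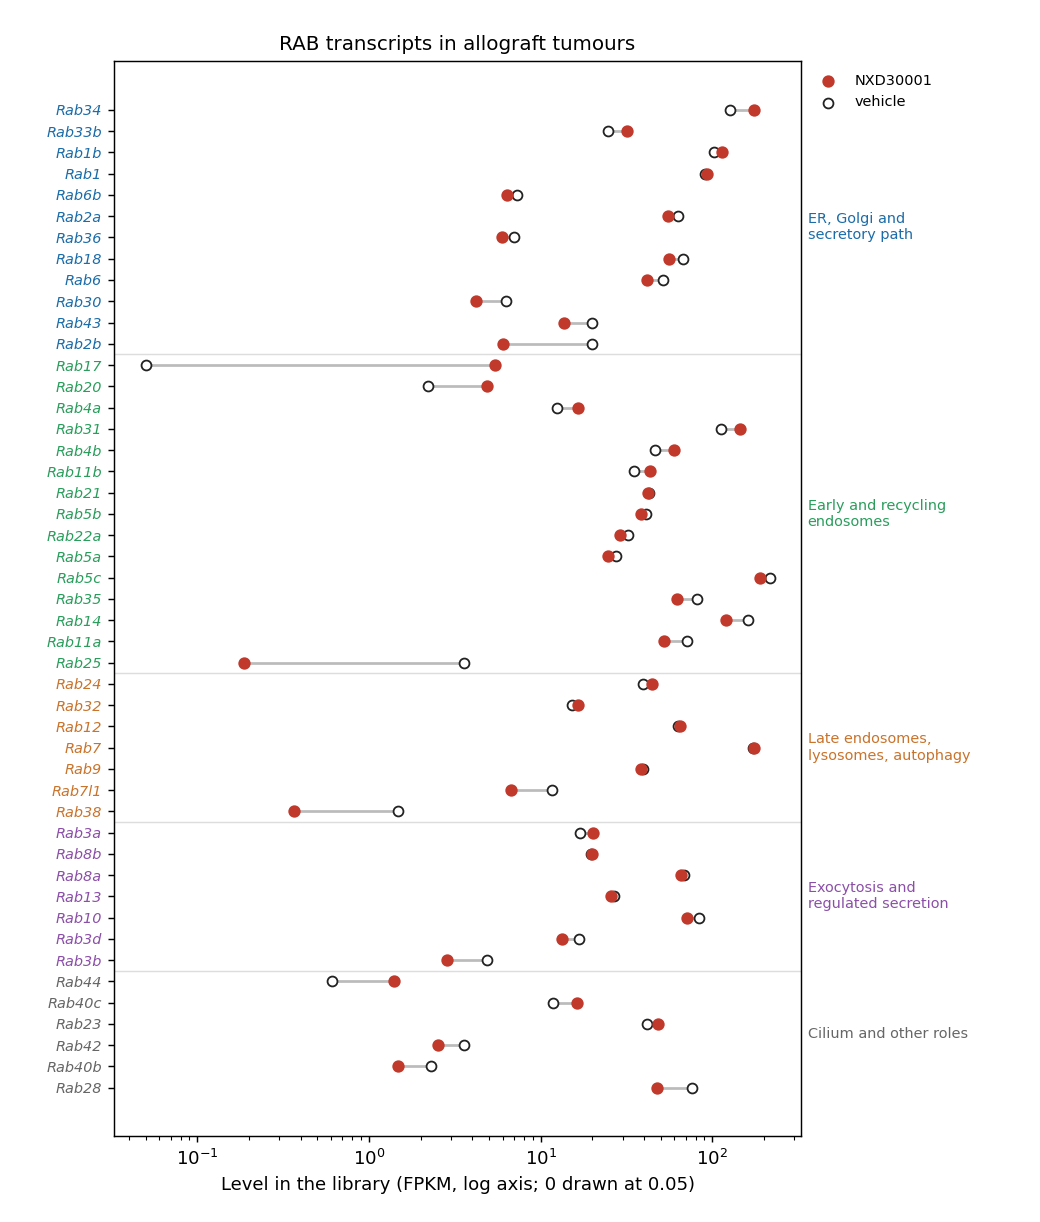
Level of the 47 RAB members measured in tumours, in FPKM on a log axis, grouped as for culture. Filled points are the NXD30001 tumour and open points the vehicle tumour, 1 library each. Most pairs lie close together, and the widest gaps are those of Rab17, Rab25, Rab38 and Rab2b. The vehicle level of Rab17 is 0 and is drawn at the low end of the axis.

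Rab2b, a Golgi RAB related to Rab2a (ENSMUSG00000022159, chromosome 14 from 52881446 to 52924799), was at 6.06 FPKM in the NXD30001 tumour and 20.0 FPKM in the vehicle tumour. Its difference was -1.57 (log2 fold -1.72, error 0.34 in the authors' deposited table), and the authors' deposited table gave a q of 3.91e-05, at a locus shared with another row. Rab2a was at 55.4 FPKM in the NXD30001 tumour and 63.1 FPKM in the vehicle tumour. In culture Rab2b was at 35.8 FPKM with NXD30001 and 35.0 FPKM with DMSO. Rab2b was therefore lower in the treated library in the tumour table and within 2-fold in the culture table.

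Rab17 and Rab25, recycling RABs known from epithelia, differed in opposite directions. Rab17 was at 5.40 FPKM in the NXD30001 tumour and listed at 0 in the vehicle tumour, and was called with a q of 0.0127. Rab25 was at 0.186 FPKM in the NXD30001 tumour and 3.56 FPKM in the vehicle tumour, a difference of -1.94 (log2 fold -4.26, error 1.77 in the authors' deposited table), and was not called. In culture Rab25 was listed at 0 in both libraries, and Rab17 was at 0.276 FPKM with NXD30001 and 0.830 FPKM with DMSO, under the limit. Of 6 epithelial genes looked up after these values were seen, Krt8 was at 61.1 FPKM in the NXD30001 tumour and 374 FPKM in the vehicle tumour, and Krt18 at 1.39 FPKM in the NXD30001 tumour and 17.4 FPKM in the vehicle tumour. Their summed level was 63.1 FPKM in the NXD30001 tumour and 391 FPKM in the vehicle tumour, while the defining genes Epcam and Cldn4 were listed at 0 in both and Cdh1 and Krt19 lay under 1 FPKM. The part of such cells in the Rab17 and Rab25 values was not tested.

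Rab7 and Rab14 were among the 5 most abundant members in all 4 libraries, while the others of the top 5 differed between culture and tumours. Each table was ordered by its own levels, since the tables were made separately. Rab5c was first in both tumours, at 190.4 FPKM with NXD30001 and 216 FPKM with vehicle. Rab34, which acts at the Golgi and in cilium formation, was at 175 FPKM in the NXD30001 tumour and 128 FPKM in the vehicle tumour, rank 2 with NXD30001 and rank 4 with vehicle. Rab7 was at 175 FPKM in the NXD30001 tumour and 173 FPKM in the vehicle tumour. Rab31, which carries cargo between the Golgi and endosomes, was at 144 FPKM in the NXD30001 tumour and 112 FPKM in the vehicle tumour. Rab14 was at 121 FPKM in the NXD30001 tumour and 162 FPKM in the vehicle tumour. In culture Rab34 stood at rank 28 with NXD30001 and 23 with DMSO, and Rab5c at rank 17 with NXD30001 and 22 with DMSO. Rab1, first in both culture libraries, was seventh in both tumours at 92.6 FPKM with NXD30001 and 91.1 FPKM with vehicle. The 5 most abundant members held 37.9% of the family's sum in the NXD30001 tumour and 36.0% in the vehicle tumour, less than in culture.

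Markers of other cell types differed between the tumours. The summed level of 9 mast cell markers was 53.8 FPKM in the NXD30001 tumour and 12.5 FPKM in the vehicle tumour, with 7 of 8 measured markers higher. Rab44, a RAB known from mast cells and granulocytes in mouse, was at 1.40 FPKM in the NXD30001 tumour and 0.612 FPKM in the vehicle tumour, at a shared locus (log2 fold 1.20, error 1.30 in the authors' deposited table). All 8 measured macrophage markers were lower, with a summed level of 763 FPKM in the NXD30001 tumour and 1090.4 FPKM in the vehicle tumour. All 6 endothelial markers were lower, with 23.4 FPKM in the NXD30001 tumour and 68.9 FPKM in the vehicle tumour. Neuronal markers summed to 189 FPKM in the NXD30001 tumour and 82.8 FPKM in the vehicle tumour, with 5 of 7 measured ones higher and Snap25 and Syt1 listed at 0. Of the RABs of neuronal secretion, Rab3a was at 20.2 FPKM in the NXD30001 tumour and 17.0 FPKM in the vehicle tumour, and Rab3b at 2.85 FPKM in the NXD30001 tumour and 4.85 FPKM in the vehicle tumour. Rab3c was listed at 0 in both. Rab20, a phagosome RAB, was at 4.86 FPKM in the NXD30001 tumour and 2.20 FPKM in the vehicle tumour. The part of these cell types in the RAB values was not tested.

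The medians of the RAB regulators lay close to 0 between the tumours, with single genes further out. The prenylation and recycling factors had a median of 0.21, with none of 8 past 2-fold and none called. In this list Rabggta, a subunit of the RAB geranylgeranyl transferase, was at 15.8 FPKM in the NXD30001 tumour and 10.5 FPKM in the vehicle tumour. Gdi2, which extracts RABs from membranes, was at 113 FPKM in the NXD30001 tumour and 161 FPKM in the vehicle tumour. Exchange factors had a median of 0.11 (29 measured, 1 at least 2-fold higher, 0 lower), GTPase-activating proteins -0.03 (34 measured, 1 higher, 1 lower) and effectors 0.12 (40 measured, 1 higher, 1 lower). The authors' deposited table called 2 exchange factors higher and 0 lower, 1 GTPase-activating protein higher and 3 lower, and 2 effectors higher and 1 lower.

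Madd, the exchange factor for Rab3 and Rab27, was at 11.2 FPKM in the NXD30001 tumour and 4.59 FPKM in the vehicle tumour and was called. Sbf2 was at 37.4 FPKM in the NXD30001 tumour and 20.6 FPKM in the vehicle tumour and was called, and Dennd1a, at 24.8 FPKM in the NXD30001 tumour and 13.4 FPKM in the vehicle tumour, was not. Evi5, a GTPase-activating protein linked to Rab11, was at 25.1 FPKM in the NXD30001 tumour and 64.7 FPKM in the vehicle tumour. Rabgap1 was at 9.61 FPKM in the NXD30001 tumour and 19.8 FPKM in the vehicle tumour, and Tbc1d24 at 5.18 FPKM in the NXD30001 tumour and 2.02 FPKM in the vehicle tumour. All 3 were called in the authors' deposited table, and all 3 share their locus with another row, as do Sbf2, Dennd1a and Mical1. Among effectors Mical1 was at 19.0 FPKM in the NXD30001 tumour and 7.50 FPKM in the vehicle tumour, and Micall2 at 27.0 FPKM in the NXD30001 tumour and 14.0 FPKM in the vehicle tumour, both called. Ehbp1, higher in treated culture, was lower in the treated tumour, at 16.9 FPKM with NXD30001 and 37.6 FPKM with vehicle, and was called in both tables.

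**Figure D5:**
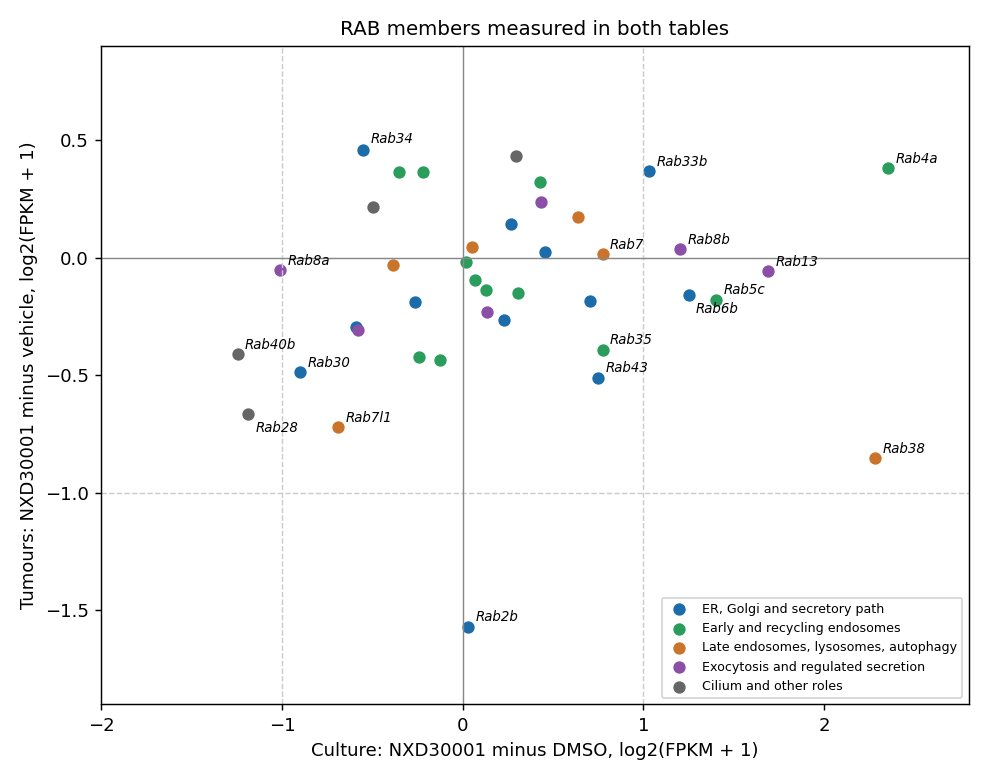
Difference of each of the 40 RAB members measured in both tables, with culture (NXD30001 minus DMSO) on the horizontal and tumours (NXD30001 minus vehicle) on the vertical axis, both in log2(FPKM + 1). Dashed lines mark 2-fold. By this difference all 10 members past 2-fold in culture lie within 2-fold in the tumours, and Rab2b is the reverse. Rab38, at 0.368 FPKM with NXD30001 and 1.47 FPKM with vehicle in tumours, passes 2-fold downward there with a pseudocount of 0.1.

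Set side by side, the tables share no library. Of the 40 members measured in both, 22 had the same sign (55.0%), against 51.0% of 11559 genes measured in both: 11 higher in both (27.5%, against 19.4% of genes) and 11 lower in both (27.5%, against 31.6%). A higher level in treated culture with a lower level in the treated tumour was found for 14 members (35.0%), against 21.5% of genes, and the opposite for 4 (10.0%), against 27.5%. The family was chosen as raised in treated culture, which favours the shares with a higher culture level. Nothing is therefore read from these shares. Of the 7 members 2-fold higher in culture, Rab4a, Rab33b and Rab8b differed by 0.38, 0.37 and 0.04 in tumours. Rab13, Rab5c, Rab6b and Rab38 differed by -0.06, -0.18, -0.16 and -0.85 there. Rab38 was at 0.368 FPKM in the NXD30001 tumour and 1.47 FPKM in the vehicle tumour, near the limit of measurement, and was not called. Lower in both tables by over 0.65 were Rab28 and Rab7l1 (now Rab29). Rab28 was at 47.6 FPKM in the NXD30001 tumour and 76.1 FPKM in the vehicle tumour. Rab7l1, a RAB known in human cells for recruiting the kinase LRRK2, was at 1.98 FPKM in the NXD30001 culture and 3.81 FPKM in the DMSO culture. In tumours it was at 6.69 FPKM with NXD30001 and 11.7 FPKM with vehicle.

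Near the limits of the rules, Rab40c and Rab36 were the members least above 1 FPKM in culture, and Rab17 and Rab32 were just under it. Rab40c was at 1.11 FPKM with NXD30001 and 0.715 FPKM with DMSO, and Rab36 at 0.835 FPKM with NXD30001 and 1.20 FPKM with DMSO. In tumours Rab44 and Rab38 were just inside, and Rab39 and Rab33a just outside. Rab39 was at 0 FPKM with NXD30001 and 0.713 FPKM with vehicle, and Rab33a at 0.514 FPKM with NXD30001 and 0 FPKM with vehicle. By the difference used here, just under 2-fold in culture were Rab7 and Rab35 at 0.78 and 0.77, and Rab30 at -0.90. The deposited log2 fold, which has no pseudocount, was past 2-fold for Rab30 (-1.25, error 0.82). It was also past 2-fold for Rab3d (-1.10, error 0.88), whose difference with the pseudocount was -0.58. Of the 14 members under the limit in culture, 8 were listed at 0 in both libraries, namely Rab3c, Rab19, Rab25, Rab27a, Rab33a, Rab37, Rab42 and Rab44.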

How the data were processed

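Members, gene lists and roles were chosen with earlier results of these data known. The authors deposited 2 gene tables, 1 for culture and 1 for tumours, each with FPKM of an untreated and a treated library. Per the submitters' processing notes these came from CASAVA, TopHat 1.2.0, Cufflinks 1.0.2 and Cuffdiff on mm9. The authors also deposited a natural log fold, a statistic and a q-value per gene, used here as scores: called genes had q up to 0.0499, and q reached 2.05 among the rest. The sources used here do not state strandedness, so reads of antisense or overlapping neighbours may be mixed. The labels' sample type calls all 4 samples cultured cells; titles, sources and treatments place 2 in tumours and were followed.

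Left out were failed estimates (705 culture rows, 347 tumour rows) and rows marked LOWDATA (61 culture, 449 tumour). The rest, where at least 1 library reached 1 FPKM, were compared as log2(FPKM + 1), treated minus untreated, with Python 3.11.15 and pandas 2.3.3. The code for the difference was run on simulated data without noise, with large known changes in well expressed genes. Its outcome follows from the arithmetic, so this checked the code and not sampling error, low levels or genes near the limits. The error of a deposited fold is that log fold over its statistic, in log2; it covers no biological spread. Depth is unknown beyond the ratios given, so no interval was made. Table starts count from 0, since end minus start equalled the GENCODE M21 length for 10580 of 19955 genes with a locus of their own and the length less 1 for 268; starts are printed counting from 1. A shared locus means identical coordinates in another row. Motifs were searched on both strands of RefSeq promoter windows, and coding sequences are the longest complete ones in GENCODE M21, aligned with Biopython 1.88. Named genes were members past 2-fold or called in either table, the 5 highest in each table, and the 3 largest differences per regulator list and table; others were named after their values were seen. Symbols in several rows (346, none a member) entered with the highest row. Some genes and lists this rule covers are not reported here.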

Additional observations from a re-analysis of the deposited data

Results flagged for a closer look

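Members past 2-fold in 1 table and of the other sign in the other were picked out, with the culture difference first and the tumour difference after it; with 1 library per group none of these differences between tables was tested. Rab38 differed by 2.28 in culture and -0.85 in tumours, a gap of 3.14. Rab13 differed by 1.69 and -0.06, a gap of 1.75. Rab2b differed by 0.03 and -1.57, a gap of 1.60. Rab5c differed by 1.40 and -0.18, a gap of 1.58, and Rab6b by 1.25 and -0.16, a gap of 1.41. The loci of Rab38, Rab2b and Rab6b are shared with another row.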

How the results depend on the processing

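Each count and median of the family was recomputed under 9 other choices, of which the change of fold limit applies to counts alone, and 35 of these 52 values stayed close to the reported one. Close meant a change of at most 1.5-fold for a count, and of under 0.1 without a change of sign for a median. With a pseudocount of 0.1 the members lower became 6 in culture and 3 in tumours, both counted as close. There 29.9% and 9.36% of all genes were lower. The 7 members higher in culture became 4 without shared loci and 12 at a 1.5-fold limit, where 12.1% and 21.8% of all genes were higher. The 4 lower became 0 with a pseudocount of 5, 2 with a minimum of 5 FPKM, 1 after centring on the median of all genes, 2 without shared loci and 7 at 1.5-fold, where 13.4%, 25.5%, 18.4%, 23.7% and 37.6% of all genes were lower. Centring moved the culture median to 0.38 and turned Rab14 in culture to 0.0103. With a pseudocount of 0.1, Rab40b in culture came to -2.81 and Rab17 in tumours to 5.78; with 5, Rab17 came to 1.06 and Rab2b in tumours to -1.17. In tumours the 1 member higher became 3 with a pseudocount of 0.1, 2 at 1.5-fold, and 0 without genes at 0 in either library or among members measured in both tables, where 9.46%, 14.2%, 5.48% and 7.32% of all genes were higher. The 2 lower became 1 with a pseudocount of 5, with a minimum of 5 FPKM, without shared loci or among members measured in both tables, where 2.73%, 5.49%, 5.53% and 6.93% of all genes were lower, and 6 at 1.5-fold, where 14.8% were. The cause was not tested beyond what each choice removes. No paired analysis was possible because each group has 1 library, and no library could be left out for the same reason. Depth and replicate error limit every member: in culture the error implied by the deposited statistic alone ranged from 0.45 to 1.12.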

Other observations

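Members with a single cysteine codon among the last 5 differed from the others in how many passed 2-fold in culture. Of the 9 such members, all measured, 6 passed 2-fold, with Rab8b, Rab13 and Rab38 higher and Rab8a, Rab28 and Rab40b lower in the NXD30001 library. Of the 32 measured members with a pair of cysteine codons, 5 passed it, and 37.5% of all compared genes did. The median absolute difference was 1.19 in the single-cysteine members and 0.45 in the others. In tumours 0 of 9 and 3 of 37 passed 2-fold, with medians of 0.26 and 0.31, and 14.3% of all compared genes did. With a pseudocount of 0.1, Rab38, which has a single cysteine codon, and Rab20 and Rab44, which have a pair, also passed it there. In culture Rab8a, Rab28 and Rab40b no longer passed 2-fold after centring on the median of all genes or with a pseudocount of 5. Centring also brought Rab7 and Rab35, which have a pair of cysteine codons, past 2-fold, and so narrowed the contrast. After centring 17.8% of all genes were 2-fold higher and 18.4% lower. With a pseudocount of 5, Rab33b and Rab39b, which have a pair, fell under 2-fold as well. The split was noticed after the values were seen, in the contrast that chose the family. Several of the single-cysteine members are paralogues, and the split was not tested.

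Rab37 was called in the tumours by the authors' deposited table with a q of 2.89e-10, although it was listed at 0 in the NXD30001 tumour and at 0.0781 FPKM in the vehicle tumour.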
